A study of Mus musculus with 17 samples.

Results

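Klk1b22, Lgals7, Slc1a5, Vmn2r29, Arhgap33os, Hddc3, Slc8a2, Ercc2, Abcc6 and Bcl2l12 are 10 genes of mouse chromosome 7 that were chosen by their RNA levels, which differed from wild type in limb buds carrying ΔBor, the deletion of a chromatin domain boundary on chromosome 11. They are 10 of the 34682 genes in the deposited tables and 10 of the 1240 tested genes that an annotation places on chromosome 7. The values that picked them are those of ΔBor against wild type, so their shift in that contrast is given as a description, with no test. The rule named the genes and set no threshold on a value.

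RNA was sequenced from mouse limb buds at E12.5 (polyA RNA). The 15 libraries analysed here are 4 wild type (WT), 2 Dup-C, 2 Dup-L, 4 Dup-LΔBor, 2 ΔBor heterozygous (het) and 1 ΔBor homozygous (hom). All the mutants carry structural variants on chromosome 11 around Sox9, which drives cartilage formation, and the potassium channel genes Kcnj2 and Kcnj16. Dup-C and Dup-L are duplications there, ΔBor removes the boundary between the Sox9 and Kcnj domains, and the label of Dup-LΔBor joins the Dup-L duplication with the boundary deletion. Not given by the labels are the zygosity of the 3 duplication genotypes, the strain, the limb taken, and whether libraries of a group came from separate embryos. The tests below therefore measure the spread between these libraries, which may be technical. Samples of fingertips at E17.5 were not analysed here.

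Domain boundaries are stretches of chromatin that limit which enhancers contact which promoters, and their loss is known to act on genes in the adjoining domains of the same chromosome. The 10 genes lie on another chromosome and share no pathway. Klk1b22 encodes a glandular kallikrein, a secreted serine protease of a tandem family known from salivary gland. Lgals7 encodes galectin-7, a sugar-binding lectin of stratified epithelium, and Vmn2r29 a pheromone receptor of the vomeronasal type 2 family. Slc1a5 is the neutral amino acid carrier that brings in glutamine, Slc8a2 a sodium-calcium exchanger, and Abcc6 an ABC transporter known for its part in preventing ectopic calcification. Ercc2 is the XPD helicase of TFIIH, which opens DNA for transcription and nucleotide excision repair. Hddc3 is an HD domain phosphohydrolase, Bcl2l12 a proline-rich relative of the BCL2 proteins of apoptosis, and Arhgap33os a noncoding RNA named for the strand opposite Arhgap33, a RhoGAP.

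Levels are given as CPM, counts scaled to library size, unless FPKM, the authors' values scaled to library size and transcript length, is named. Libraries held between 34486256 and 53711742 counts. The limb mesenchyme list (Prrx1, Prrx2, Msx1, Twist1, Lmx1b) summed to 895 to 1158 CPM in WT and 1173 to 1262 CPM in ΔBor, with no marker at 0. Prrx1 made up most of the sum, at 548 to 732 CPM in WT and 738 to 895 CPM in ΔBor. Prrx2 went the other way, at 121 to 148 CPM in WT and 88.1 to 104 CPM in ΔBor. The ΔBor ranges of Msx1, Twist1 and Lmx1b overlapped those of WT. The boundary itself holds no gene whose counts could check the genotype. Kcnj2 next to it stood at 44.5 and 30.4 CPM in ΔBor het and 63.0 CPM in ΔBor hom, against 17.6 to 26.2 CPM in WT. Pitx1, a hindlimb transcription factor, was at 1.83 CPM in WT 2, 1.83 CPM in WT 4 and 0.518 to 0.677 CPM in Dup-L, against 59.8 CPM in WT 1, 70.1 CPM in WT 3 and 39.9 to 116 CPM in ΔBor. The library numbers in the column headers fall in 2 ranges: all ΔBor libraries share the first with WT 1 and WT 2, and Dup-LΔBor the second with WT 3 and WT 4. The Dup-LΔBor columns R4 and R5 carry the same library number. Their counts differ beyond sampling noise (chi-square per gene 25.5, against 5.93 to 33.1 for the other pairs of that genotype), so they were kept as 2 libraries, and whether they share a source is not stated.

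Start site sequences are shown for the 3 genes that were higher in ΔBor and for Lgals7, the lowered gene of highest mean FPKM in WT, to show how different these promoters are from one another. Each run has 300 bases, 250 before and 50 after the start, from RefSeq on GRCm38.p6, 5′ to 3′ on the strand of the gene. Capitals mark the letters of the TATA box (TATAAA), the CCAAT box or the GC box (GGGCGG) on either strand, wherever they fall. A match need not be a box in use. RefSeq entries were matched for 8 of the 10 genes.
Klk1b22, chr7:44112423-44112722, plus strand: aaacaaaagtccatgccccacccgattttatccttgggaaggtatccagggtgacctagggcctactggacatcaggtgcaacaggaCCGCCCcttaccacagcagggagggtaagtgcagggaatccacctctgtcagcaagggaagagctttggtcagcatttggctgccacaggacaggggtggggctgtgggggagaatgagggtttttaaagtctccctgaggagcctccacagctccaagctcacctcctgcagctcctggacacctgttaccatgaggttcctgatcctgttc
Arhgap33os, chr7:30514872-30515171, plus strand: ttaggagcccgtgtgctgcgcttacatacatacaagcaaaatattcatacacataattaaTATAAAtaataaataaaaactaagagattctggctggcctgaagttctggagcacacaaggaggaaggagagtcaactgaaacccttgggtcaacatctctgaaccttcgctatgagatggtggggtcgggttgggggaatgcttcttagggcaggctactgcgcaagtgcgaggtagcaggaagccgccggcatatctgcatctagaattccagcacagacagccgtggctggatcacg
Hddc3, chr7:80342887-80343186, plus strand: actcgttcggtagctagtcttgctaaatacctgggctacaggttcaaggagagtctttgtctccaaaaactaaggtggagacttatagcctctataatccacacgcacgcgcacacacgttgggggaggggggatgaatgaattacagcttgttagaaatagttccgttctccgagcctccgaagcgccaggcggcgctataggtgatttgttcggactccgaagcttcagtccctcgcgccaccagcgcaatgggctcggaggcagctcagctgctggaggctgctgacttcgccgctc
Lgals7, chr7:28864136-28864435, plus strand: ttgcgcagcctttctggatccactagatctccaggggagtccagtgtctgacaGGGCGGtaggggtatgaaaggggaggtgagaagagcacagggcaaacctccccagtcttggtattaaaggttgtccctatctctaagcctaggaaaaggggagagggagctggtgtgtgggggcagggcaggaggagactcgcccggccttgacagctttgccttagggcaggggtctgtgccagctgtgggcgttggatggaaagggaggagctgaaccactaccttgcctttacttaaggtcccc

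The Klk1b22 window held 2 CpG dinucleotides and the Lgals7 window 5, against a median of 7 over the 32851 promoters of the table. Arhgap33os had 10 and Hddc3 had 20. TATAAA occurred once in the Arhgap33os window and in 13.6% of all promoters. GGGCGG occurred once each at Klk1b22 and Lgals7 and in 35.7% of all promoters. CCAAT, in 37.4% of all promoters, was in none of these 4 windows. Among the other genes matched, Ercc2 held 27 CpG, Bcl2l12 19 and Slc8a2 10, and the 2 Vmn2r29 entries held 23 and 0. No motif searched was common to the 3 raised genes, and such matches of letters describe these windows only.

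Of the 10 genes, 3 stood higher in ΔBor than in WT and 7 lower, in het and hom alike. The fit across all 17655 tested genes called all 10 in both contrasts, which the choice of the genes fixes. Beside that, 4.03% of all tested genes were called in ΔBor het against WT (2.25% higher, 1.78% lower) and 1.27% in ΔBor hom against WT (0.901% higher, 0.374% lower).

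Klk1b22 had no count in any of the 12 libraries other than ΔBor het and hom, Dup-LΔBor included. It had 93 and 72 counts in the het libraries and 184 counts in the hom library. That is 2.46 and 1.88 CPM in het and 5.07 CPM in hom (2.65, 2.13 and 5.40 FPKM). The 3 ΔBor libraries thus held all 349 counts of the gene. Set against a floor of 3 counts per WT library, the level was at least 34.4-fold higher in het and at least 80.4-fold higher in hom. Among the other kallikreins of the Klk1b group, no gene passed 2 counts in a ΔBor library, and Klk1b24 had the most elsewhere, with up to 5 counts. Of the 50-base words in the longest Klk1b22 transcript, 13.3% also occur in transcripts of other genes, its kallikrein relatives among them, and the other words do not.

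Arhgap33os was also close to 0 outside ΔBor. It had 75 and 114 counts in het and 95 in hom (1.98, 2.98 and 2.62 CPM), against 3, 2, 5 and 1 counts in the 4 WT libraries. Dup-C had 5 and 0 counts, Dup-L 0 and 1, and Dup-LΔBor 13, 7, 6 and 2. The ΔBor libraries sat far above all 12 others. By summed counts scaled to depth, het was 44.3 times WT (95% counting interval 24.2 to 90.2) and hom 46.6 times WT (24.9 to 96.6). No word of its longest transcript occurs in another gene's transcripts. Arhgap33, the gene on the opposite strand, did not move with it: its fitted log2 difference from WT was -0.05 in het and 0.02 in hom. In the GRCm38 annotation Arhgap33os overlaps no other gene. Whether the counting used strand, and which annotation it used, is not stated. Both Klk1b22 and Arhgap33os pass the filter on low counts only through the ΔBor libraries.

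Hddc3 was already well expressed in WT, at 11.6, 12.99, 13.02 and 13.997 CPM. It stood at 35.6 and 37.3 CPM in het and 41.7 CPM in hom, and the other 8 libraries lay between 11.1 and 14.8 CPM. The ΔBor groups did not overlap any other library. The fitted log2 difference from WT was 1.498 (SE 0.10) in het and 1.69 (SE 0.12) in hom. A pseudogene, Gm18310, shares most of its sequence: 69.9% of the 50-base words of the longest Hddc3 transcript occur in it, so reads of these genes may have been split or left out by the counting.

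Lgals7 was the lowered gene of largest fitted drop. WT libraries had 8.50, 8.23, 15.9 and 11.1 CPM, het 1.40 and 1.23 CPM, and hom 1.18 CPM. Every other genotype kept at least 4.47 CPM. The log2 difference from WT was -3.05 (SE 0.29) in het and -3.20 (SE 0.40) in hom. Because Lgals7 is an epithelial gene, the surface ectoderm list is given beside it. Its 10 markers summed to 618 to 699 CPM in ΔBor, 726 to 1137 CPM in WT and 543 to 751 CPM in Dup-L, and none was at 0 in ΔBor. One of the 10, the basal keratin Krt14, fell in ΔBor by edgeR (log2 -0.70, adjusted p = 0.0388, het; -0.96, adjusted p = 0.0489, hom). In whole limb buds, fewer cells of a type and less RNA per cell cannot be told apart, and the part of ectoderm content in the Lgals7 value was not tested. Nerve and glia markers (5) summed to 23.3 to 30.0 CPM in ΔBor against 34.9 to 39.3 CPM in WT, with 1 called in het. Macrophage markers (5) summed to 27.7 to 35.9 CPM against 36.4 to 48.6 CPM, with 0 called. Of these, Adgre1 was at 0 in every library, WT included. Cd68 was at 3.80 to 4.92 CPM in ΔBor and at least 5.18 CPM in all other libraries. The nerve and glia sum and the macrophage sum lay below every WT library, and their part in the values of the 10 genes was not tested. The sums for skeletal muscle, blood and endothelium overlapped WT.

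Vmn2r29 and Abcc6 were low in every library and nearly lost in ΔBor. Vmn2r29 had 84, 119, 92 and 91 counts in WT, and 8 and 13 in het and 12 in hom. In CPM this was 1.62 to 2.53 in WT against 0.212, 0.340 and 0.330 in ΔBor. Its log2 difference was -2.85 (SE 0.30) in het and -2.59 (SE 0.40) in hom. Abcc6 had 33, 44, 27 and 26 counts in WT and exactly 3 in each ΔBor library, with 16 to 56 in the other 8 libraries. Scaled to depth, WT was 8.41 times het (95% counting interval 3.76 to 23.3) and 8.03 times hom (2.69 to 39.4). Reads of Vmn2r29 are less certain than those of Abcc6, since 66.0% of its 50-base words occur in other transcripts and none of those of Abcc6 does. All 3 ΔBor libraries lay below all 12 others for both genes.

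Slc1a5 was among the well expressed genes that fell short of WT. It stood at 51.6, 50.1, 47.3 and 46.1 CPM in WT, 14.4 and 17.1 CPM in het, and 16.7 CPM in hom. No other library was under 37.7 CPM. Its log2 difference was -1.63 (SE 0.11) in het and -1.55 (SE 0.14) in hom.

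Ercc2 and Bcl2l12 had the smallest fitted shifts. Ercc2 was at 23.99 and 27.95 CPM in het and 25.4 CPM in hom against 46.98, 47.14, 54.96 and 53.85 CPM in WT, with log2 differences of -0.966 (SE 0.11) and -0.997 (SE 0.15). Bcl2l12 was at 12.1 and 15.6 CPM in het and 14.2 CPM in hom against 24.4, 27.4, 25.4 and 27.7 CPM in WT, with log2 differences of -0.92 (SE 0.12) and -0.88 (SE 0.16). For these 2 genes, Dup-L came near to ΔBor: its lowest Ercc2 value was 29.3 CPM, 1.048 times the highest ΔBor value, and its lowest Bcl2l12 value was 19.1 CPM, 1.22 times the highest. Slc8a2 was at 4.999 and 7.55 CPM in het and 4.27 CPM in hom against 10.97, 13.2, 17.4 and 16.7 CPM in WT, with log2 differences of -1.21 (SE 0.20) and -1.77 (SE 0.29). One Dup-L library had 7.21 CPM of Slc8a2, inside the ΔBor range, so this gene alone among the 10 overlapped.

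**Figure D1:**
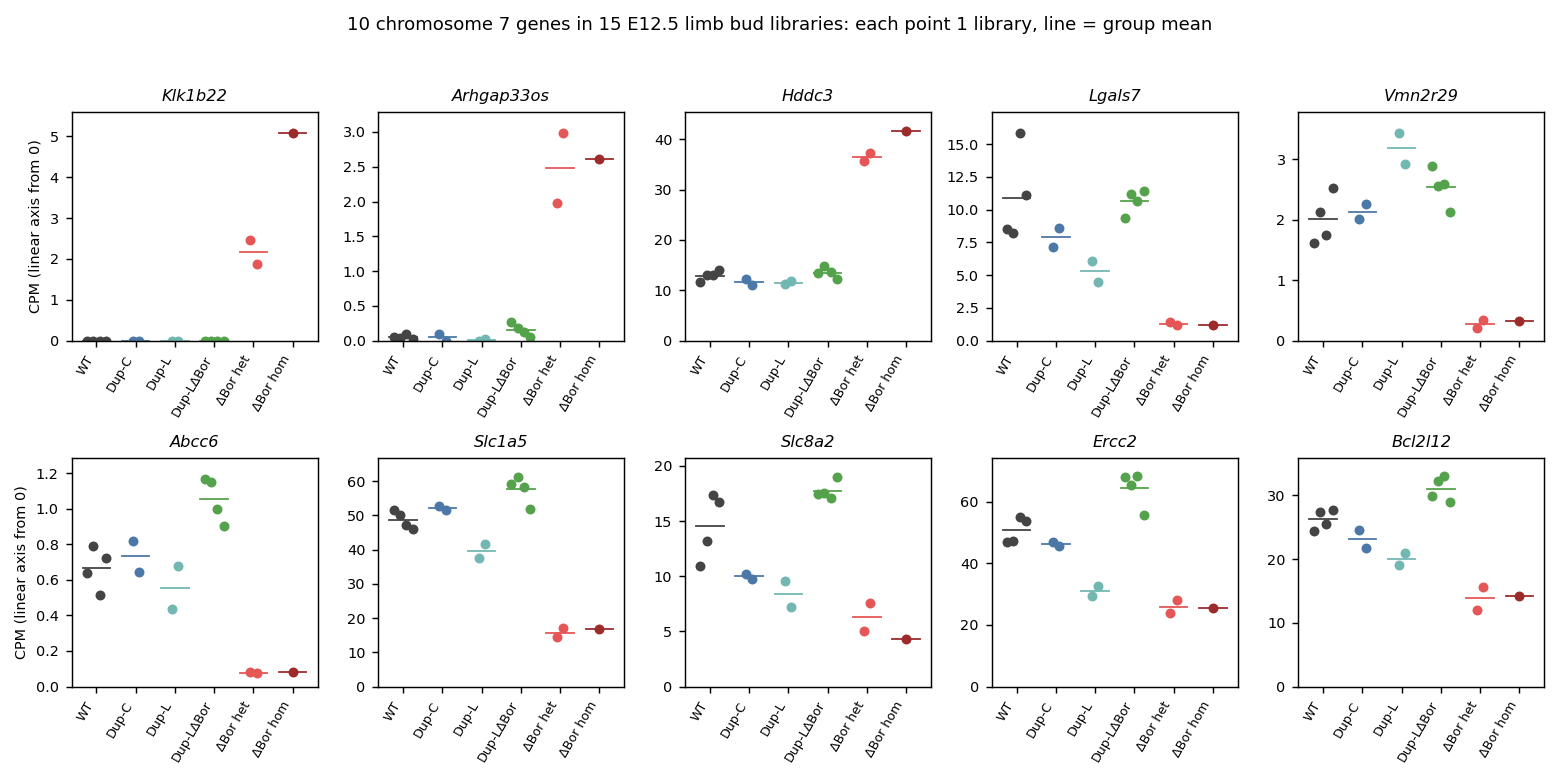
CPM (linear axis from 0) of the 10 genes in 15 libraries, 1 point a library, with the mean of each genotype as a line. Klk1b22 and Arhgap33os are near 0 outside ΔBor, Hddc3 sits at 35.6 to 41.7 CPM in ΔBor against at most 14.8 CPM elsewhere, and the Dup-LΔBor points lie with WT or above it for every gene but Klk1b22, which is 0 in both.

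Per length, the 10 genes had levels from 0 to 23.49 FPKM in WT. Lgals7 had 12.47 to 23.49 FPKM, Slc1a5 15.03 to 16.54 FPKM, Bcl2l12 12.8 to 14.8 FPKM, Hddc3 11.97 to 14.63 FPKM and Ercc2 11.7 to 13.7 FPKM. The ranges of the last 3 overlap one another. Slc8a2 followed with 2.29 to 3.63 FPKM, Vmn2r29 with 0.38 to 0.60, Abcc6 with 0.09 to 0.14 and Arhgap33os with 0.01 to 0.03, while Klk1b22 was listed at 0. In ΔBor hom the order changed, with Hddc3 first at 41.3 FPKM, Bcl2l12 at 7.19 FPKM, Ercc2 at 6.10 FPKM, Klk1b22 at 5.40 FPKM and Slc1a5 at 5.15 FPKM. Lgals7, which had the highest mean in WT, had 1.69 FPKM there.

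To ask about dose, the shift of het from the WT mean was set against the shift of hom from it, both in CPM. For Klk1b22 the het mean reached 42.8% of the hom shift (48.6% and 37.1% in the single libraries). For the other 9 genes it reached 80.5% (Slc8a2) to 103% (Bcl2l12), so the shift in the 2 het libraries was close in size to that in the hom library. Hddc3 was at 81.8%, Arhgap33os at 94.7%, Lgals7 at 98.7% and Slc1a5 at 103%. Single het libraries of Arhgap33os differed more, at 75.3% and 114%. Xist, an RNA of female cells, was at 0.873 and 0.836 CPM in the het libraries and 2869.6 CPM in the hom library. In WT 1 to WT 4 it was at 2265.1, 1.005, 0.3998 and 0.583 CPM. Het and hom thus differed in Xist as well as in dose, and the part of sex in these percentages was not tested.

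Tested directly, ΔBor hom against ΔBor het gave 0 of the 10 genes by edgeR, where 0% of the 17655 tested genes were called. At an unadjusted p under 0.05 edgeR had 505 genes, while DESeq2 called 1 gene and limma on log2(FPKM + 1) called 2. The largest difference was that of Klk1b22, 1.22 on the log2 scale (95% interval 0.26 to 2.18; edgeR adjusted p = 0.999), and its hom library had 2.34 times the het level by counts alone (counting interval 1.88 to 2.90). It did pass with limma on log2(FPKM + 1), with a difference of 0.92 and adjusted p = 8.41e-05. For Hddc3 the interval ran from -0.12 to 0.51, for Slc1a5 from -0.22 to 0.39, for Ercc2 from -0.37 to 0.30 and for Slc8a2 from -1.18 to 0.07. These intervals leave room for modest differences, and they are wider for Abcc6 (-1.53 to 1.66). The hom group is 1 library, assumed to vary like the other groups, and both groups took part in picking the genes. Because the hom library also differed from both het libraries in Xist, dose and sex cannot be told apart in this comparison.

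The second question was whether another genotype shares the shift. Dup-LΔBor, whose label names the same boundary deletion, did not show it. Klk1b22 was at 0 counts in all 4 of its libraries, which allows at most 3 counts each. Hddc3 was at 12.3 to 14.8 CPM and its log2 difference from WT was 0.07 (95% interval -0.12 to 0.26), against 1.498 and 1.69 in ΔBor. Lgals7 was at 9.33 to 11.4 CPM, with a difference of -0.03 (-0.43 to 0.36). Slc1a5 was at 51.9 to 61.3 CPM, with a difference of 0.24 (0.07 to 0.41), and Abcc6 had 34 to 56 counts, with a difference of 0.66 (0.20 to 1.13). The difference between ΔBor and Dup-LΔBor was not tested on its own, since the ΔBor values picked the genes.

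Of the 9 genes with counts in Dup-LΔBor or WT, 1 rose in Dup-LΔBor against WT by edgeR and 0 fell, beside 3.85% of all tested genes (2.25% higher, 1.60% lower). The gene was Ercc2, at 67.9, 65.4, 68.4 and 55.7 CPM (log2 0.34, SE 0.09, adjusted p = 0.0471). The call was lost in 12 of 18 alternatives, where adjusted p reached 0.309. All 4 libraries lay outside the WT range for 4 genes, Slc1a5, Ercc2, Abcc6 and Bcl2l12, beside 12.3% of all tested genes. In each case they lay above WT, while the ΔBor libraries lay below it. Arhgap33os had 28 counts over the 4 libraries against 11 in WT, a ratio of 2.90 by depth (counting interval 1.40 to 6.45), and its edgeR adjusted p was 0.158. Even its highest library, at 0.271 CPM, was under the lowest ΔBor value of 1.98 CPM. WT libraries serve both contrasts.

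In Dup-C, 0 of the 9 genes with counts passed by edgeR, beside 0.00566% of all tested genes. One had an unadjusted p under 0.05, Slc8a2 (log2 -0.54, 95% interval -0.96 to -0.13; edgeR adjusted p = 0.251), and DESeq2 and limma also called none. Slc8a2 stood at 10.2 and 9.75 CPM in Dup-C. For Slc8a2 and Ercc2, and no other of the 10 genes, both Dup-C libraries lay outside the WT range, where 19.4% of all tested genes did. They lay below it, the direction of ΔBor. Log2 differences of the 9 genes ran from -0.54 to 0.15. When WT 1 was left out, 1 gene passed, as lower. Hddc3 was at 12.2 and 11.1 CPM and Slc1a5 at 52.9 and 51.6 CPM, both within or next to the WT values.

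In Dup-L, 6 of the 9 genes passed by edgeR, 1 higher and 5 lower, in a comparison where 32.4% of all tested genes passed (15.8% higher, 16.6% lower). Lgals7 fell, to 6.10 and 4.47 CPM (log2 -1.05, adjusted p = 0.00538), as did Slc8a2 (-0.79, adjusted p = 0.00780) and Ercc2 (-0.72, adjusted p = 0.00144). Bcl2l12 (-0.39) and Slc1a5 (-0.30) fell by less. These 5 are lower in ΔBor too, with the same WT libraries in the 2 contrasts. Dup-L was also low in Pitx1 (0.518 to 0.677 CPM), as were WT 2 and WT 4 but no ΔBor library. The part of limb type in the Dup-L values was not tested. Both Dup-L libraries lay outside the WT range for 7 of the 10 genes, where 51.0% of all tested genes did. Vmn2r29 went the other way and rose, to 3.43 and 2.93 CPM (log2 0.67, adjusted p = 0.0294). The Vmn2r29 call was lost with its sign kept in 8 of 18 alternatives, and in 1 more its sign turned, to -0.0944, with offsets for GC content and transcript length. Hddc3, at 11.2 and 11.8 CPM, had a difference of -0.17 (95% interval -0.40 to 0.06). With these offsets, 0 of the 6 passed. Without Dup-L 1 the number was 3, and without Dup-L 2 it was 1.

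GC content moved with these values. The lowered genes other than Vmn2r29 have transcripts of 56.5% to 59.1% GC, against a median of 49.9% over tested genes, and Vmn2r29 has 34.3%. Of the raised genes, Arhgap33os has 60.3%, above every lowered gene, Hddc3 52.4% and Klk1b22 49.6%. In Dup-L the median log2 difference from WT was 0.45 in the lowest of 5 GC classes of equal size and -0.52 in the highest. In ΔBor het those medians were 0.29 and -0.26, and in ΔBor hom 0.37 and -0.32. With the offsets, the ΔBor values kept their signs: Slc1a5 was -1.43 in het and -1.28 in hom, Lgals7 -2.74 and -2.99, Vmn2r29 -3.30 and -3.22, and Hddc3 1.59 and 1.75. Abcc6 was -2.78 and -2.62, and Arhgap33os 5.66 and 5.81. Slc8a2 was reduced to -0.99 and -1.43, Ercc2 to -0.71 and -0.66 and Bcl2l12 to -0.72 and -0.67. Ercc2 and Abcc6 no longer passed in hom. Over 18 alternatives for het, the Slc8a2 value ran from -1.54 to -0.73, and 5 of them did not call it.

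Dup-LΔBor against Dup-L, which shares no library with the contrast that picked the genes, gave 7 of the 9 genes higher and 0 lower by edgeR, beside 43.6% of all tested genes (21.5% higher, 22.1% lower). Ercc2 rose by 1.06 (SE 0.12, adjusted p = 5.20e-05), Slc8a2 by 1.08 (SE 0.20, adjusted p = 0.000689) and Lgals7 by 1.01 (SE 0.24, adjusted p = 0.00381) on the log2 scale. Abcc6, Bcl2l12, Slc1a5 and Arhgap33os also rose, the last from 1 count in Dup-L to 28 counts. Arhgap33os passes the filter on low counts only through the ΔBor libraries, and its call was lost in 7 of 13 alternatives. For the 6 of these 7 genes that are lower in ΔBor, the direction is opposite to that of ΔBor against WT. With GC and length offsets 2 passed, Ercc2 (0.47) and Bcl2l12 (0.29). Dup-L and Dup-LΔBor lie in different ranges of library numbers, so that the genotype and the range cannot be told apart here.

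**Figure D2:**
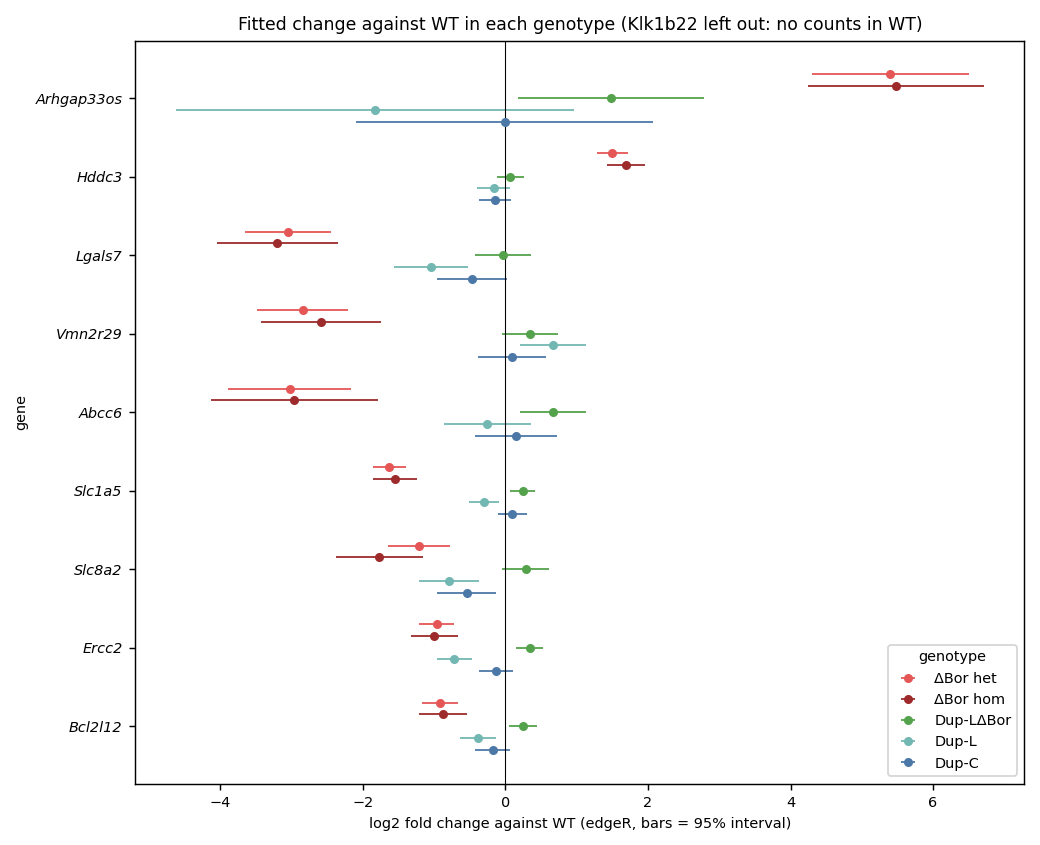
Fitted log2 difference from WT (x axis) of 9 genes in 5 genotypes, with the 95% interval as a bar. Klk1b22 is left out because WT had no counts of it. The ΔBor points of Hddc3, at 1.498 and 1.69, and of Slc1a5, at -1.63 and -1.55, stand clear of those of the other genotypes, while Ercc2 in Dup-L, at -0.72, lies near ΔBor.

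Set against all libraries at once, the 3 ΔBor libraries lay outside the range of the other 12 for 9 of the 10 genes, all except Slc8a2, beside 2.17% of all tested genes. The choice of the genes used the ΔBor values, so this count and the ranks and gaps that follow support nothing by themselves. Klk1b22 and Arhgap33os are among the tested genes only through their ΔBor counts. The gap between the nearest ΔBor library and the nearest other library, on log2 CPM, ranked Klk1b22 at 1, Arhgap33os at 2, Vmn2r29 at 4, Abcc6 at 5 and Lgals7 at 6 among 17655 genes. Hddc3 ranked 10 and Slc1a5 13, while Bcl2l12 ranked 57 and Ercc2 210.

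A gap of 2-fold or more was found for 15 genes, 0.0850% of those tested. Of these, 7 are among the 10, which were chosen by the same ΔBor values. Another gene of chromosome 7 was Nlrp9b, of the NLR family of germ cells and innate immunity, with 14 to 18 counts in ΔBor and at most 5 elsewhere. On chromosome 4 were Zfp600, Gm13242 and Rex2, all higher. AF365933_gene, AK138161_gene, Gm13154_copy2 and Gm13051_copy2, all higher, could not be given a chromosome by symbol. These names were read off after the values were seen.

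Along the chromosome the 10 genes are spread rather than side by side. In the gene order of GRCm38, numbered over the 1240 tested genes, Vmn2r29 was at 73, Slc8a2 at 108, Slc1a5 at 121, Ercc2 at 161, Lgals7 at 306, Arhgap33os at 353, Klk1b22 at 442, Bcl2l12 at 479, Abcc6 at 544 and Hddc3 at 679. None was in the last 4 of 10 equal blocks of that order. Coordinates of the tables' own build, mm9, are not given, since the annotation used here is of another build.

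Of the 20 nearest tested genes, 1 on each side of each of the 10, 3 were called in ΔBor het, beside 4.03% of all tested genes, and 1 in ΔBor hom, beside 1.27%. The ΔBor libraries lay outside the other 12 for 2 of the 20. Their median absolute log2 difference in het was 0.39, against 0.23 over all tested genes. The largest was that of Prmt1, an arginine methyltransferase beside Bcl2l12, at -1.58 in het and -1.55 in hom, the direction of Bcl2l12 (edgeR adjusted p = 0.0623 and 0.126). Prmt1 was at -1.62 in Dup-L, where it passed (edgeR adjusted p = 0.0161). Unc45a, a myosin chaperone next to Hddc3, fell while Hddc3 was higher (edgeR log2 -0.71, adjusted p = 0.0235 in het; -0.78, adjusted p = 0.0489 in hom). Ccdc114 (-0.92, adjusted p = 0.0410) and Nomo1 (-0.51, adjusted p = 0.0407) on either side of Abcc6 fell in het by edgeR. In Dup-L, where 32.4% of all tested genes passed, Unc45a (-0.81) and Nomo1 (-0.73) fell too (edgeR adjusted p = 0.0016 for each). Ccdc114, at -0.30 there, did not pass. Man2a2, on the other side of Hddc3, was at 0.04 and -0.09. Klk4, the enamel protease beside Klk1b22, was at 0.50 in het and 1.11 in hom and did not pass. Mir343, which overlaps Ercc2 in the annotation together with Klc3, was at -0.94 and -0.77, and its counts may hold reads of Ercc2.

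**Figure D3:**
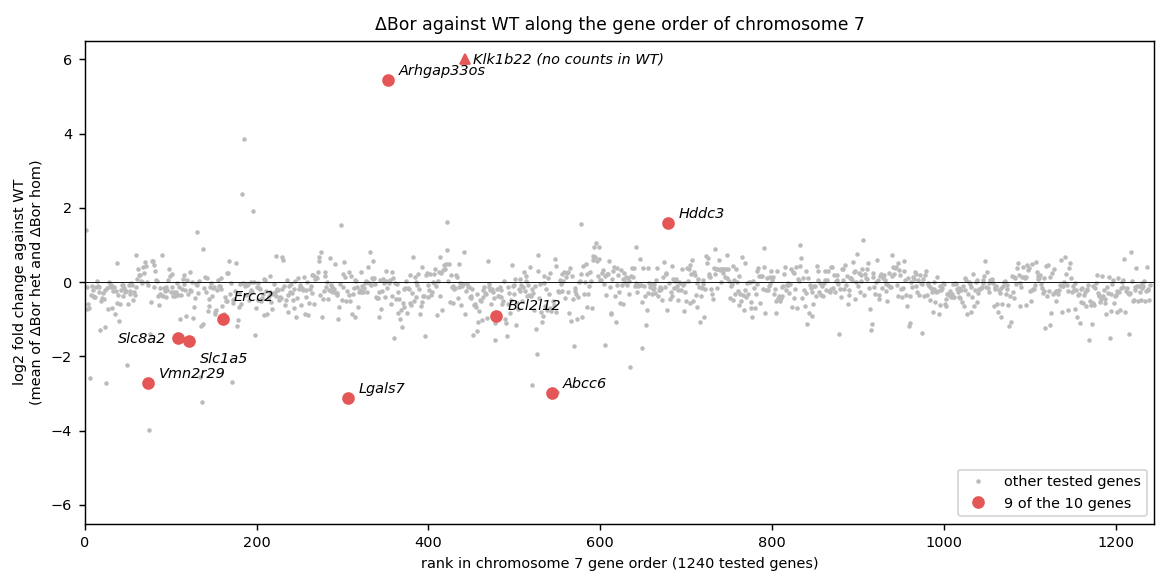
Mean of the ΔBor het and hom log2 differences from WT (y axis) against the rank of each tested gene in the order of chromosome 7 (x axis), with the 10 genes in red and the others in grey. Klk1b22, drawn as a triangle at rank 442, has no fold because WT had no counts. The red points stop at Hddc3, rank 679 of 1240. A number of grey points between them also lie far from 0, among them Mir5620, Nlrp9b, Ceacam19, Zfp296 and, less far out, Prmt1.

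Genes other than the 10 that were set apart in ΔBor also lay in the same stretch. On chromosome 7, 5.48% of tested genes had all 3 ΔBor libraries outside the other 12, against 1.88% on all other chromosomes with a match. The chromosome 7 share counts the chosen genes in, and their ΔBor values picked them. The first 6 blocks of 124 genes held 63 of these 68 genes (8.47% of 744) and the last 4 blocks 5 (1.01% of 496). Leaving out the 10, the first 6 blocks had 54 of 734 genes, or 7.36%. The last 4 blocks, which hold none of the 10, stayed at 1.01%. After Hddc3 at 679, the next such genes were Sh3gl3 at 707 and Eftud1 at 710, and then 2210018M11Rik at 768 and Zfp747 at 1040. The blocks were laid out with earlier results of these data known, and neighbouring genes are not independent, so the shares are given with no test. Chromosome 7 held 83 of the 712 genes called in ΔBor het and 28 of the 225 called in ΔBor hom, with the 10 chosen genes among them each time. That is 6.69% of its tested genes in het, where chromosome 13 had 7.003% and all other chromosomes 3.97%, and 2.26% in hom against 1.22%. With GC and length offsets it held 28 of 95, including 10 of the chosen genes, and 10 of 33, including 8 of them, so these counts rest in part on the values that chose the genes.

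**Figure D4:**
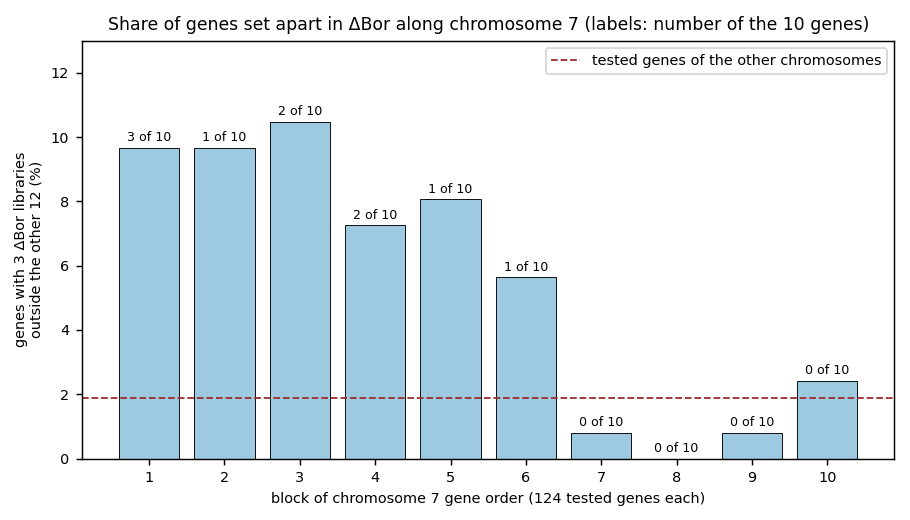
Share of tested genes with all 3 ΔBor libraries outside the range of the other 12 (y axis, percent), by block of the chromosome 7 gene order (x axis, 124 genes each), with the number of the 10 genes above each bar and the share on the other chromosomes, 1.88%, as a dashed line. The first 6 bars stand at 5.65% to 10.5%, and the last 4 at 0% to 2.42%. The bars count the chosen genes in, while the dashed line holds none of them.

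Outside the 10, 16 of the 1240 tested genes of chromosome 7 were called by edgeR in both ΔBor het and ΔBor hom in the same direction, 7 higher and 9 lower. The other chromosomes together had 118 of 14977. By share they ran from 1 of 548 on chromosome 19 to 8 of 506 on chromosome 16. Nlrp9b was the highest by fold, at 0.434 and 0.385 CPM in het and hom against 0.0237 CPM in WT. Luzp2, a leucine zipper protein, was at 5.28 and 5.86 CPM against 1.86 CPM, and Pop4, a subunit of RNase P, at 83.4 and 93.2 CPM against 55.7 CPM. Pnmal1 and the imprinted noncoding RNA Kcnq1ot1 were the other raised genes of the 5 with the largest mean shift. Kcnq1ot1 also rose in Dup-LΔBor against WT (edgeR log2 0.74, adjusted p = 0.0199). Among the lowered genes, Apoe, the lipoprotein of cholesterol transport, was at 26.1 and 19.1 CPM against 50.4 CPM. Pcsk6, a proprotein convertase, was at 40.2 and 38.8 CPM against 82.4 CPM, and Ifitm3, Cpt1c and Fbxo17 completed the 5. Of these 10, Kcnq1ot1, Apoe and Ifitm3 had ΔBor libraries inside the range of the others.

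Over the 15 libraries, the genes whose log2 CPM was most like the average pattern of the 10 (standardised, with lowered genes turned over) were AF365933_gene (Pearson r 0.96), Gm13154_copy2 (0.96), Oscar (-0.94), Sh3gl3 (0.93), Pttg1 (0.93), Frrs1 (-0.93), Tusc1 (0.92), Syngr1 (-0.91), Calr (-0.91) and Fbxo17 (-0.91). All 10 had the ΔBor libraries outside the others. Oscar, Sh3gl3 and Fbxo17 lie on chromosome 7. Of the 100 most alike, 21 were on chromosome 7, which holds 7.02% of the tested genes. The libraries are shared by all these values and the pattern is mainly the step between 3 libraries and 12, so r is a description.

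Related genes of the 10 were counted from lists. Of the 5 other tested kallikreins, 0 passed in ΔBor het or hom, and Klk8 had 178 to 225 counts in ΔBor within 94 to 392 elsewhere. None of the 6 other tested galectins passed in ΔBor, nor did any of the 6 other vomeronasal receptors, 5 other SLC1 carriers, 8 other sodium-calcium exchangers, 17 other BCL2 family genes or 2 other HD domain hydrolases. In the 19 other genes of TFIIH and excision repair, 2 rose and 0 fell in ΔBor het by edgeR: Ccnh (0.43, adjusted p = 0.0435) and Cdk7 (0.36, adjusted p = 0.0422), both of the kinase module of TFIIH, where 2.25% of all tested genes were called higher. Ccnh also rose in hom (0.62, adjusted p = 0.0489). Both rose in Dup-L too, Ccnh by 0.48 and Cdk7 by 0.42 (edgeR adjusted p = 0.00419 and 0.00281). The median of the 19 was -0.01 in het, against -0.02 over all tested genes. In the 9 other ABC transporters of subfamily C, Abcc1 fell in het (-0.36, adjusted p = 0.0435) by edgeR and 0 passed in hom. Of 20 tested imprinted genes of chromosome 7, 3 rose and 0 fell in het by edgeR, and Kcnq1ot1 rose and Atp10a fell in hom.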

How the data were processed

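The authors deposited raw counts per gene and, for the same genes and libraries, FPKM values. No header or label states their library scale. STAR, DESeq2 and bedtools 2.17.0 and the build mm9 are named in the submitters' processing notes. Counting tool, annotation and use of strand: not given in the sources used here. Most columns matched 1 sample's labels. Those of Dup-LΔBor, named R2 to R5 with another genotype string, and of ΔBor hom, named R3, were matched by group only.

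Counts of all 15 libraries entered 1 edgeR 4.0.16 fit in R 4.3.3 (TMM; filterByExpr on groups; two-sided quasi-likelihood test with robust dispersion; Benjamini-Hochberg over 17655 genes, threshold 0.05), with 6 groups and no block. SE and 95% intervals come from the F-statistic. Alternatives used DESeq2 1.42.0, limma 3.58.1 on log2(FPKM + 1) and log2(FPKM + 0.1), GC and length offsets, no filter, the library number range, a replicate block, and omitted libraries. The edgeR fit was tested on simulated counts. Gene order, by symbol or synonym, and promoters are from RefSeq (GRCm38.p6), and GC content and 50-base words from GENCODE transcripts. Counting intervals and floors (3 counts) cover counting error only. No 2 replicates agreed within sampling noise. None of the 10 shared its whole row of counts with another gene. Genes named are the 10, their nearest neighbours, the most alike genes, the 5 higher and 5 lower genes of chromosome 7 with the largest shift, and list members past the threshold (at most 4 per list). The 10 genes, the lists and the rules were chosen with earlier results of these data known.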

Additional observations from a re-analysis of the deposited data

How the results depend on the processing

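The ΔBor values of the 10 genes kept their direction in all 18 alternatives run for het and all 14 for hom. Klk1b22 was not called in 2 of those for het, DESeq2 and the replicate block plus GC and length offsets. DESeq2 did not call it in hom either. The number of the 10 called stayed at 7 to 10 in het except with the replicate block plus GC and length offsets (5), and 7 to 10 in hom except with the first range of library numbers only (5). The labels' replicate numbers did not pair libraries (correlations of same-numbered deviations -0.18 to 0.10 over 2 numbers), and with the replicate block the number called was 7 in het, 0 in Dup-C and 1 in Dup-L. In hom against het, Klk1b22 was the 1 gene called by limma on log2(FPKM + 1), with or without the filter.

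The counts over all genes moved far more, and the cause was not tested. For ΔBor het the genes called numbered 1906 by DESeq2, 55 in the first range only, 95 with GC and length offsets, 32 with the range as a term, 381 by limma on log2(FPKM + 0.1), 379 on log2(FPKM + 1), 102 without the filter, 35 with the replicate block, 30 with block and offsets, 245 without WT 2 and WT 4, and 19 to 2490 with 1 library left out. For ΔBor hom they numbered 1862 by DESeq2, 26 in the first range only, 33 with offsets, 26 with the range as a term, 36 and 70 by limma with 0.1 and 1 added, 114 with no filter on counts, 19 without WT 2 and WT 4, and 21 to 2750 with 1 library left out. For hom against het they numbered 1 by DESeq2, 1 with offsets, 2 by limma with either pseudocount, 59 by limma without the filter, and 1 with either het library left out.

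For Dup-C the genes called numbered 7 by DESeq2, 0 in the first range only, 3 by limma without the filter, 0 with the replicate block, 0 with block and offsets, and 1640 without WT 1, where 1 of the 10 passed. For Dup-L they numbered 3036 in the first range only, 1046 with offsets, 1584 with the replicate block, 0 with block and offsets, and 1122 to 5952 with 1 library left out. Of the 10, Dup-L had 2 called in the first range only, 0 with offsets, 1 with the replicate block, 0 with block and offsets, and 1 to 6 with 1 library left out. For Dup-LΔBor against WT they numbered 1565 by DESeq2, 1236 with offsets, 70 with the range as a term, 66 in the second range only, 210 by limma without the filter, 1447 without WT 2 and WT 4, and 81 to 1516 with 1 library left out. The call of Ercc2 there went to 0 of the 10 with the range as a term, in the second range only, by limma in all 3 forms, with no filter on counts, without WT 2 and WT 4, and without WT 1, WT 2 or Dup-LΔBor R2, R3 or R4. For Dup-LΔBor against Dup-L they numbered 4885 with offsets, where 2 of the 10 passed, and 4438 to 7671 with 1 library left out.

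Some values changed sign. With GC and length offsets Slc1a5 in Dup-L went from -0.30 to 0.072 and Vmn2r29 from 0.67 to -0.0944, and with block and offsets Slc8a2 went from -0.79 to 0.032, all 3 called before. In hom against het, Ercc2 was 0.0445 with offsets and Bcl2l12 -0.0009 by limma on log2(FPKM + 1), with or without the filter. With 1 het library left out, Ercc2 ran from -0.1319 to 0.0837, Bcl2l12 from -0.1287 to 0.2395, Arhgap33os from -0.1816 to 0.399, Slc1a5 from -0.0287 to 0.2088 and Vmn2r29 from -0.0339 to 0.6364. Depth limits Abcc6, at 3 counts a ΔBor library, Arhgap33os, at 0 to 13 counts outside ΔBor, and Klk1b22, at 0 counts there.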
